A study of Mus musculus with 8 samples.

Results

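The ETS transcription factors that IRF8 can partner with, PU.1 and Spi-B, and 8 other genes of their family were followed in sorted germinal centre (GC) B cells of mice. The group holds 10 genes, Sfpi1 (the name the tables give to Spi1), Spib, Ets1, Fli1, Elf1, Elf2, Elf4, Etv6, Gabpa and Elk4, chosen by gene family and by name from 23471 entries per table. All 10 have an entry in both tables. Of the 26 ETS family genes of the mouse listed here, the other 16 served for comparison. Libraries labelled Irf8 cKO came from C57BL/6 mice that were Irf8flox/flox, and Ctrl libraries from mice that were Irf8+/+. Both genotypes also carry 1 copy of an allele that expresses Cre recombinase in the B lineage. In both, B220+ FAShigh GL7high cells were sorted on day 13 of the response to NP-KLH, a hapten on a protein carrier. Each of 2 experiments gave 1 library per genotype, so n = 2 per group. Nothing in the labels says whether a library stands for 1 animal or a pool, so the spread between libraries may be technical. The p-values below speak for these libraries only. As deposited, those of limma rest on the variance trend over all genes and not on a gene's own spread between libraries. The 4 samples of lipopolysaccharide-activated B cells in the series were not analysed here.

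ETS factors share a winged helix domain that binds DNA at a GGAA core. PU.1, the product of Spi1, and its close relative Spi-B differ from most of the family in that they recruit IRF4 or IRF8, which bind poorly alone, to composite elements where an ETS core lies next to a GAAA site. In B cells such elements lie in immunoglobulin light chain enhancers and in genes of antigen receptor signalling and antigen presentation. The other members bind DNA with different partners, such as RUNX1 and PAX5 for ETS1, a beta subunit for GABPA and serum response factor (SRF) for ELK4.

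The upstream sequences of the members were read for these sites. RefSeq promoter windows (GRCm38.p6, the assembly of mm10) with a start within 50 bases of the deposited one were found for 6 of the 10, namely Spib, Elf1, Elf4, Etv6, Gabpa and Elk4. The 250 bases before the start site were searched on both strands. The core GGAA was in all 6 windows, as in 93.4% of 32851 such windows of the genome. The longer site CCGGAAG, which contains that core and which GABP and ELK proteins are known to prefer, was in the windows of Gabpa and Elk4, against 6.91% of all windows. The composite form, GGAA followed after any 2 bases by GAAA, was in none of the 6 and in 2.30% of all windows. A match is a run of letters and not a measured site. The windows below run 5′ to 3′ on the strand of the gene, Spib as the most abundant member and Gabpa and Elk4 as the windows that hold the longer site. Capitals mark GGAA in Spib and CCGGAAG in Gabpa and Elk4, or their reverse complement. The windows lie at chr7:44532072-44532321 on the minus strand (Spib), chr16:84834874-84835123 on the plus strand (Gabpa) and chr1:132007370-132007619 on the plus strand (Elk4), where the RefSeq start lies 15 bases inside the deposited gene.
Spib: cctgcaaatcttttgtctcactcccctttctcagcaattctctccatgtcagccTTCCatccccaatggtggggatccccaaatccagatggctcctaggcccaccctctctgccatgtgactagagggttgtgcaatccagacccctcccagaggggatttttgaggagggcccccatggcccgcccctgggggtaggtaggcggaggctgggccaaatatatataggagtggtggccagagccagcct
Gabpa: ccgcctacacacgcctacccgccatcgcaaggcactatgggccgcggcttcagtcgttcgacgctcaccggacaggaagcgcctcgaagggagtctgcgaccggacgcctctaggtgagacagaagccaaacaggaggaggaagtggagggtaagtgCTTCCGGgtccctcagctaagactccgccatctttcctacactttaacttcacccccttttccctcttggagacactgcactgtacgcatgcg
Elk4: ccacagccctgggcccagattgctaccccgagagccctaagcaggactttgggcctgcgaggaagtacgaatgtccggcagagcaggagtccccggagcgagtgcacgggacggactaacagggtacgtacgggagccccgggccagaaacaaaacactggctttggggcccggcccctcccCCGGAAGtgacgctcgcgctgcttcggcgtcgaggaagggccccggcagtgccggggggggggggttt

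The values are RPKM, the reads of a gene scaled to transcript length and to the reads of the library, which can be compared between genes because they are scaled to length. Spacing of the lowest values put the estimated totals between 63220000 and 76240000 reads per library. At these totals the members had an estimated 218 (Etv6 in the library labelled Irf8 cKO 2) to 10002 reads (Spib in Ctrl 1), from transcript lengths of another annotation. Irf8, the gene the cross targets, measured 20.6 and 11.6 RPKM in the libraries labelled Irf8 cKO 1 and 2, against 14.5 and 14.9 RPKM in Ctrl 1 and 2. After the scaling described below, Irf8 was 19.4 and 17.8 RPKM in the libraries labelled Irf8 cKO 1 and 2, against 11.4 and 13.2 RPKM in Ctrl 1 and 2. In the authors' deposited table its log2 ratio is 0.717 (p = 0.0237) in experiment 1 and 0.366 (p = 0.278) in experiment 2. The transcript was lower in a library labelled Irf8 cKO only in experiment 2 as deposited, and since the value covers all exons it does not check the genotype labels. Directions below are those of the libraries as labelled. For the sorted type, 7 of 7 GC B cell marker genes were at 1 RPKM or more in at least 2 libraries. Of 5 plasma cell marker genes, 3 were at that level. The 5 summed to 33.2 and 19.6 RPKM in the libraries labelled Irf8 cKO, against 43.1 and 25.7 RPKM in Ctrl. Which cells this RNA came from was not tested. Summed markers of T cells reached at most 0.324 RPKM in any library (8 genes, 2 of them at 0 in every library), those of NK cells 0.0753, those of erythroid cells and platelets 0.768, those of dendritic cells 1.78 and those of stroma and endothelium 4.06. Summed myeloid markers (9 genes, Cd14 at 0 throughout) were 17.4 and 2.61 RPKM in the libraries labelled Irf8 cKO 1 and 2, against 66.1 and 7.86 RPKM in Ctrl 1 and 2. They moved with the genotype labels as well as with the experiment, and their part in the results below was not tested.

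Spib was the most abundant member, and it made up most of the summed transcripts of Spib and Sfpi1. The proteins were not measured. Spib, at chr7:44525995-44532071 (mm10, minus strand), encodes a factor largely restricted to B cells and plasmacytoid dendritic cells. It measured 33.0 and 23.0 RPKM in the libraries labelled Irf8 cKO 1 and 2, against 49.0 and 36.2 RPKM in Ctrl 1 and 2. It ranked between place 110 and place 123 of all entries in every library. As deposited, both Ctrl libraries exceeded both libraries labelled Irf8 cKO, as they did for 44.7% of all tested genes. After the scaling described below, Spib was 31.0 and 35.1 RPKM in the libraries labelled Irf8 cKO, against 38.5 and 32.0 RPKM in Ctrl, with overlap. Overlaps of the RPKM of single members in the next paragraphs are of deposited values and stand beside that share. Sfpi1, at chr2:91096797-91115756 (plus strand), encodes PU.1, a factor required for early B cell and myeloid development. It measured 5.70 and 4.94 RPKM in the libraries labelled Irf8 cKO 1 and 2, against 6.33 and 6.79 RPKM in Ctrl 1 and 2. These groups did not overlap as deposited. Myeloid cells also express Spi1, and Sfpi1 stood at 5.70 RPKM where the myeloid marker sum was 17.4 and at 4.94 RPKM where it was 2.61 in the libraries labelled Irf8 cKO, against 6.33 RPKM at a sum of 66.1 and 6.79 RPKM at a sum of 7.86 in Ctrl. In both genotypes the library of experiment 1 had the larger myeloid sum, so myeloid RNA and experiment cannot be told apart here. After the scaling described below, Sfpi1 was 5.37 and 7.55 RPKM in the libraries labelled Irf8 cKO, against 4.98 and 6.00 RPKM in Ctrl. On that scale Sfpi1 was lower in experiment 1 than in experiment 2 in both genotypes. A myeloid part in the Sfpi1 values was not tested. In bulk RNA, fewer cells of a type and less RNA per cell cannot be told apart.

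The Spib transcript exceeded that of Sfpi1 5.78-fold and 4.65-fold in the libraries labelled Irf8 cKO 1 and 2, against 7.73-fold and 5.33-fold in Ctrl 1 and 2. This ratio is taken within a library and does not depend on how libraries are scaled. The log2 of Sfpi1 over Spib was -2.37 ± 0.22 in the libraries labelled Irf8 cKO and -2.68 ± 0.38 in Ctrl (mean ± SD, n = 2 each), a difference of 0.31. The difference was above 0 in both experiments, at -2.53 in the library labelled Irf8 cKO 1 against -2.95 in Ctrl 1, and at -2.22 in the library labelled Irf8 cKO 2 against -2.42 in Ctrl 2. Over the unpaired libraries the groups overlapped (exact permutation test, 2-sided, p = 0.667, where 2 against 2 cannot give less than 0.333). Without Ctrl 1 the difference was 0.041, and without Ctrl 2 it was 0.58. Irf8 itself stood at 0.534 and 0.417 of the summed RPKM of Sfpi1 and Spib in the libraries labelled Irf8 cKO 1 and 2, against 0.262 and 0.346 in Ctrl 1 and 2.

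Ets1 and Fli1 are neighbours on chromosome 9, pointing away from each other with 155 kb between them, and both serve in lymphocytes. Ets1 (chr9:32696042-32757820, plus strand), whose product restrains plasma cell formation in mice, measured 19.5 and 10.3 RPKM in the libraries labelled Irf8 cKO 1 and 2, against 24.1 and 19.5 RPKM in Ctrl 1 and 2. Its groups met but did not overlap, with 19.49 RPKM in the library labelled Irf8 cKO 1 and 19.54 RPKM in Ctrl 2. Fli1 (chr9:32422208-32541368, minus strand), a factor of megakaryocyte and B cell development, measured 7.33 and 4.51 RPKM in the libraries labelled Irf8 cKO 1 and 2, against 8.19 and 7.25 RPKM in Ctrl 1 and 2. Its groups overlapped. The transcript of Ets1 exceeded that of Fli1 2.66-fold and 2.28-fold in the libraries labelled Irf8 cKO, against 2.94-fold and 2.69-fold in Ctrl.

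The ELF branch of the family is widely expressed in blood cells. Elf1 (chr14:79481194-79582476, plus strand), which encodes a lymphoid activator, measured 9.42 and 6.40 RPKM in the libraries labelled Irf8 cKO 1 and 2, against 14.95 and 11.6 RPKM in Ctrl 1 and 2. It had the largest fitted difference of the 10 as deposited, and its groups lay apart. Elf2 (chr3:51255665-51325987, minus strand), a relative of Elf1 also known as NERF, measured 4.65 and 2.36 RPKM in the libraries labelled Irf8 cKO, against 5.18 and 4.17 RPKM in Ctrl. Elf4 (chrX:48411049-48463132, minus strand), known for keeping CD8 T cells quiescent, measured 6.31 and 3.38 RPKM in the libraries labelled Irf8 cKO, against 7.44 and 6.87 RPKM in Ctrl. The groups overlapped for Elf2 and not for Elf4, and in all 3 genes the library labelled Irf8 cKO 2 was the lowest of the 4.

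The remaining members stand for other branches. Gabpa (chr16:84835124-84863778, plus strand) encodes the DNA-binding subunit of GABP, an activator of many housekeeping and mitochondrial genes, and measured 5.35 and 3.05 RPKM in the libraries labelled Irf8 cKO 1 and 2, against 6.35 and 4.83 RPKM in Ctrl 1 and 2. Elk4 (chr1:132007605-132025684, plus strand), a ternary complex factor that binds beside SRF, measured 6.72 and 5.55 RPKM in the libraries labelled Irf8 cKO, against 8.01 and 8.26 RPKM in Ctrl. The groups overlapped for Gabpa and not for Elk4. Etv6 (chr6:134035707-134270147, plus strand), a repressor of the TEL branch, was the least abundant, with 0.667 and 0.614 RPKM in the libraries labelled Irf8 cKO, against 1.03 and 1.11 RPKM in Ctrl. It reached the 1 RPKM needed for testing in Ctrl only, so its difference is part of what let it in and is given as values without weight.

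**Figure D1:**
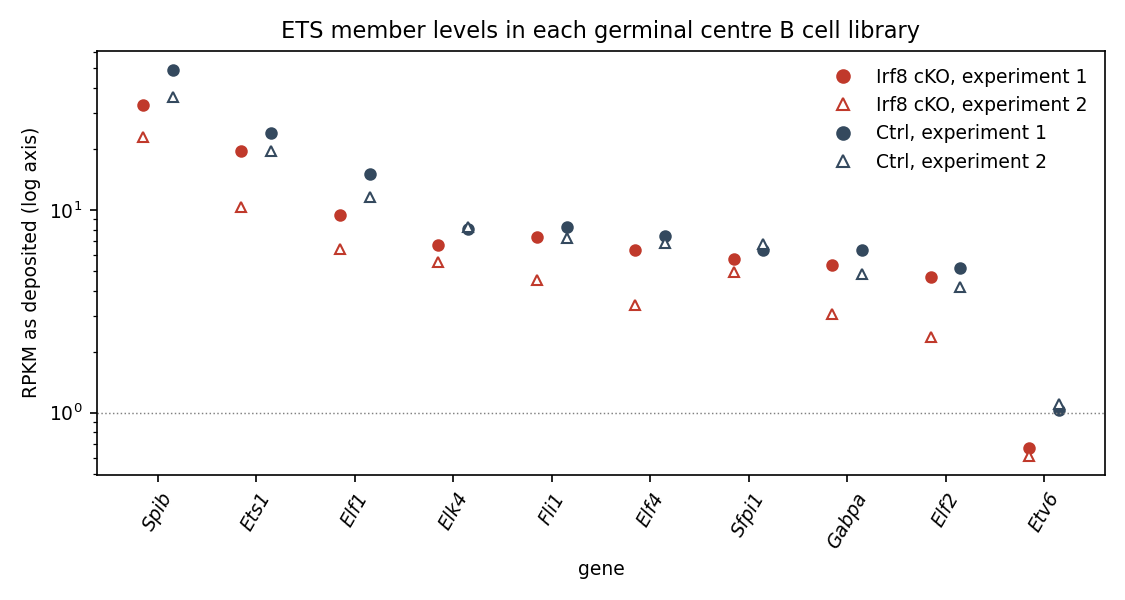
RPKM as deposited (vertical log axis) of the 10 ETS members (horizontal axis, ordered by their Ctrl mean) in each library; red stands for libraries labelled Irf8 cKO and dark grey for Ctrl, filled circles for experiment 1 and open triangles for experiment 2, and the dotted line marks 1 RPKM. Spib lies highest, from 23.0 to 49.0 RPKM, Etv6 lowest, from 0.614 to 1.11 RPKM, and 7 members lie between 2.36 and 14.95 RPKM.

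The order of the members was nearly the same in both genotypes. By mean RPKM the first places went to Spib, Ets1 and Elf1 in the libraries labelled Irf8 cKO, at 27.97, 14.9 and 7.91, as they did in Ctrl, at 42.6, 21.8 and 13.3. From Elk4 down to Elf2, in places 4 to 9, the libraries labelled Irf8 cKO ran from 6.14 to 3.51 RPKM, and each gene overlapped the next. In Ctrl the same 6 genes ran from 8.14 to 4.67 RPKM, each overlapping the next except Elf4, whose 2 values were above those of Sfpi1. Sfpi1 and Elf4 traded places 6 and 7 between the genotypes.

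Together the 10 members summed to 98.6 and 64.1 RPKM in the libraries labelled Irf8 cKO 1 and 2, against 130.5 and 106.6 RPKM in Ctrl 1 and 2. Within this sum the shares, which no scaling of libraries moves, overlapped between the genotypes for 8 of the 10 members. For RPKM after the scaling described below, 15.4% of all tested genes lay apart as lower and 15.7% as higher in the libraries labelled Irf8 cKO. Spib made up 33.4% and 35.8% of it in the libraries labelled Irf8 cKO, against 37.5% and 34.0% in Ctrl. Ets1 made up 19.8% and 16.1% in the libraries labelled Irf8 cKO, against 18.4% and 18.3% in Ctrl. The share of Sfpi1 was 5.78% and 7.72% in the libraries labelled Irf8 cKO, against 4.85% and 6.37% in Ctrl, with overlap. Only Elf1 and Fli1 had shares that did not overlap between genotypes. The share of Elf1 was 9.56% and 9.98% in the libraries labelled Irf8 cKO, against 11.5% and 10.9% in Ctrl, and that of Fli1 was 7.43% and 7.04% in the libraries labelled Irf8 cKO, against 6.27% and 6.80% in Ctrl.

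**Figure D2:**
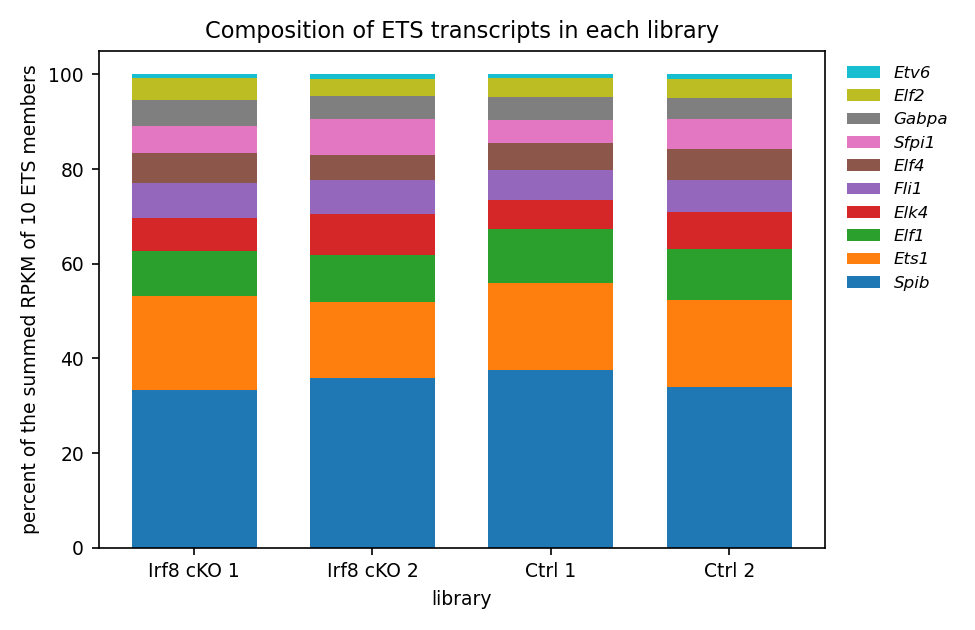
Share of each ETS member in the summed RPKM of the 10 (vertical axis, percent) for the libraries labelled Irf8 cKO 1 and 2 and for Ctrl 1 and 2 (horizontal axis); colours stand for genes. Spib, Ets1 and Elf1 at the bottom of the stack together hold 62.8% and 61.9% in the libraries labelled Irf8 cKO, against 67.4% and 63.2% in Ctrl.

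Whether the transcripts of the ETS genes differ between the genotypes as labelled was asked across all 6447 genes with at least 1 RPKM in 2 or more libraries. All 10 members had a fitted ratio below 0 in the RPKM as deposited, and none passed the test. The model was limma on log2(RPKM + 1) with the experiment as a block, which understates the change of low genes, with the Benjamini-Hochberg adjustment and a threshold of 0.05. At an unadjusted p under 0.05 limma gave 1 member, Elf1, against 18.8% of all tested genes. Over all genes the calls in the libraries labelled Irf8 cKO were 71 lower (1.1% of those tested) and 6 higher (0.0931%). Without the block the counts were 19 and 2, and again no member passed.

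These ratios have to be read against a shift of the whole transcriptome. The median log2 ratio of all tested genes was -0.35 as deposited, with -0.18 in experiment 1 and -0.51 in experiment 2, and 92.4% of tested genes lay below 0. The members' median was -0.37, or -0.37 without Etv6. Both libraries labelled Irf8 cKO were below both Ctrl libraries for 7 of the 10, Sfpi1, Spib, Ets1, Elf1, Elf4, Etv6 and Elk4, or 6 of 9 without Etv6, against 44.7% of all tested genes. None of the members lay above in the same way, against 1.19% of tested genes. Median-of-ratios scaling, which divides each library by its median ratio to the others, brought the median of all tested genes to 0.0036. It divided the libraries labelled Irf8 cKO 1 and 2 by 1.06 and 0.655, and Ctrl 1 and 2 by 1.27 and 1.13. On this scale 6 genes were lower and 2 higher, 0.0931% and 0.031% of those tested, so that 75% of calls were lower in the libraries labelled Irf8 cKO, against 92.2% as deposited.

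After scaling, none of the members passed, and limma gave 0 of them at an unadjusted p under 0.05, against 10.6% of all tested genes. In place of the common direction there were 5 members below 0 (4 without Etv6) and 5 above, between -0.22 (Elf1) and 0.19 (Sfpi1). The library labelled Irf8 cKO 2 held the lowest deposited value of all 10 members, and the lowest scaled value of 3, Ets1, Elf2 and Elf4. In that library the ribosomal RNA gene Rn45s took an estimated 9.75% of reads, and 4846 genes reached 1 RPKM. Elsewhere these values were 3.43% to 5.30% and 6172 to 6567 genes. The part of this difference in the results was not tested. Both libraries labelled Irf8 cKO were below both Ctrl libraries for Elf1 alone, a pattern that 15.4% of tested genes had. They were above both for Fli1 alone, as 15.7% of tested genes were.

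Spib had a log2 ratio of -0.60 ± 0.35 as deposited (SE; limma, Benjamini-Hochberg adjusted p = 0.304) and -0.09 ± 0.21 after scaling (adjusted p = 0.908). By experiment the scaled ratio was -0.30 and 0.13, so the experiments differed in sign. Its 95% interval after scaling ran from -0.59 to 0.41, which leaves room for a fall or a rise of about that size. Sfpi1 had -0.26 ± 0.32 as deposited and, with its sign turned, 0.19 ± 0.16 after scaling (limma adjusted p = 0.576 and 0.713), with 0.09 and 0.29 by experiment. The scaled interval of Sfpi1 ran from -0.18 to 0.56, and 39.7% of tested genes had a larger absolute ratio on that scale.

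For Elf1 the ratio was -0.69 ± 0.34 as deposited (unadjusted p = 0.0426, limma adjusted p = 0.254) and -0.22 ± 0.17 after scaling (adjusted p = 0.694, interval -0.62 to 0.18). It was below 0 in both experiments on either scale, at -0.37 and -0.06 after scaling. In levels, scaled Elf1 was 8.87 and 9.77 RPKM in the libraries labelled Irf8 cKO 1 and 2, against 11.8 and 10.2 RPKM in Ctrl 1 and 2. Of all tested genes, 16.4% had a lower scaled ratio. Ets1 had -0.58 ± 0.35 as deposited (limma adjusted p = 0.315) and -0.09 ± 0.18 after scaling (adjusted p = 0.889). Fli1 had -0.36 ± 0.33 as deposited (limma adjusted p = 0.460) and 0.09 ± 0.16 after scaling (adjusted p = 0.876), with scaled levels of 6.89 RPKM in both libraries labelled Irf8 cKO, against 6.44 and 6.41 RPKM in Ctrl.

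The scaled ratios of the other 5 members lay inside the middle 50% of all tested genes, while Elf1 lay below and Sfpi1 above that range. After scaling the log2 ratio was 0.03 for Elf2, -0.09 for Elf4, -0.09 for Etv6, 0.06 for Gabpa and 0.10 for Elk4, with adjusted p from 0.862 to 0.957 (limma). As deposited they were -0.37, -0.53, -0.33, -0.37 and -0.36 in that order, with adjusted p from 0.315 to 0.464. The 95% intervals of all 10 members after scaling lay between -0.62 and 0.56, so changes within these bounds cannot be told from none at n = 2. The authors' deposited table, which compares 1 library with 1 library and whose ratios do not equal those of its RPKM, gives the members log2 ratios from -0.461 (Elf1) to 0.0534 (Sfpi1) in experiment 1 and from -0.302 (Elf4) to 0.264 (Sfpi1) in experiment 2. The lowest p of a member in the authors' deposited table is 0.144, for Elf1 in experiment 1.

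**Figure D3:**
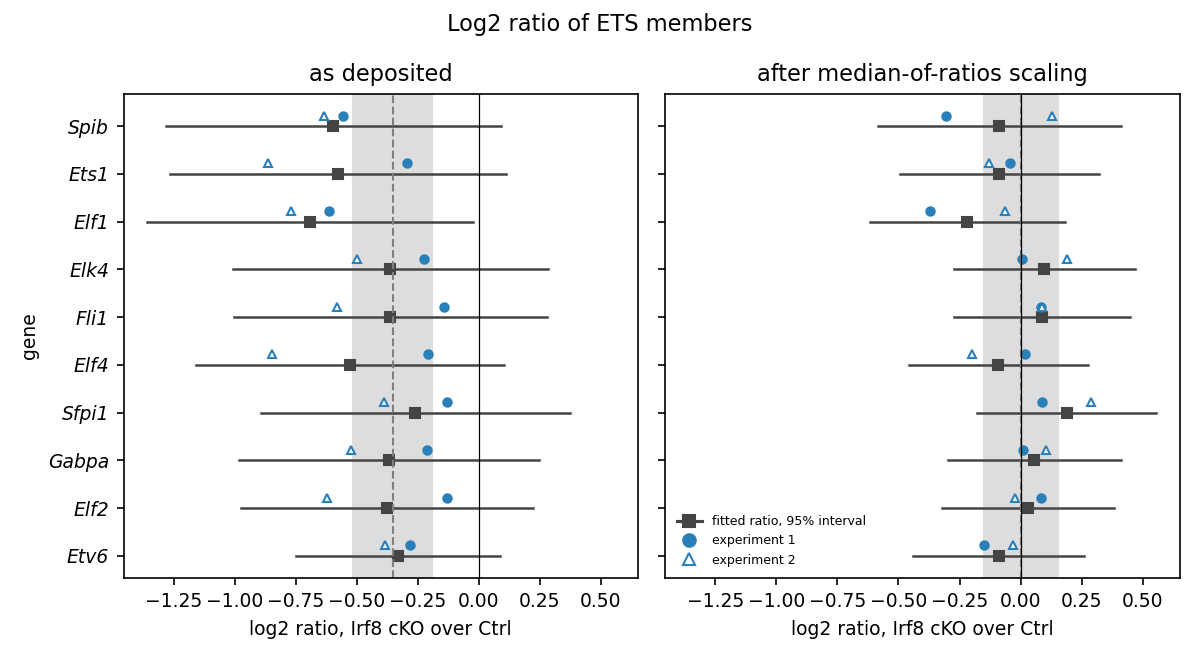
Log2 ratio of Irf8 cKO over Ctrl (horizontal axis) for each ETS member (vertical axis), as deposited on the left and after median-of-ratios scaling on the right; squares with lines are the fitted ratio with its 95% interval, circles and triangles the ratios of experiments 1 and 2, the dashed line the median and the grey band the middle 50% of all tested genes. As deposited all squares lie between -0.69 and -0.26 around a median of -0.35, and after scaling between -0.22 and 0.19 around 0.0036.

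Most of the ETS genes outside the group were low or at 0 in these cells. Of the 16, Ehf, Ets2 and Elk3 were tested and 13 lay below the filter. Elk3, a ternary complex factor related to Elk4, measured 4.11 and 3.22 RPKM in the libraries labelled Irf8 cKO 1 and 2, against 4.32 and 3.89 RPKM in Ctrl 1 and 2. Ehf, best known from epithelia, measured 2.00 and 1.26 RPKM in the libraries labelled Irf8 cKO, against 2.67 and 1.55 RPKM in Ctrl. Ets2 measured 1.41 and 1.03 RPKM in the libraries labelled Irf8 cKO, against 1.51 and 0.838 RPKM in Ctrl. Ehf and Elk3 thus stood above Etv6 in every library. None of the 3 passed, with log2 ratios of -0.23, 0.04 and -0.14 as deposited and 0.10, 0.33 and 0.28 after scaling for Ehf, Ets2 and Elk3 (limma adjusted p from 0.542 to 0.901 and from 0.556 to 0.871).

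Among the untested genes, Spic, the third gene of the PU.1 branch and a marker of splenic red pulp macrophages, measured 0 and 0.0246 RPKM in the libraries labelled Irf8 cKO 1 and 2 and was listed at 0 in Ctrl. Elk1 measured 0.564 and 0.413 RPKM in the libraries labelled Irf8 cKO, against 0.655 and 0.529 RPKM in Ctrl, and Etv3 measured 0.916 and 0.673 RPKM in the libraries labelled Irf8 cKO, against 0.957 and 0.942 RPKM in Ctrl. Elf3, Elf5, Fev and Spdef were listed at 0 in all 4 libraries. Etv5 was between 0.326 and 0.428 RPKM, Erf between 0.0934 and 0.283, and Erg, Etv1, Etv2 and Etv4 did not exceed 0.299 RPKM in any library.

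**Figure D4:**
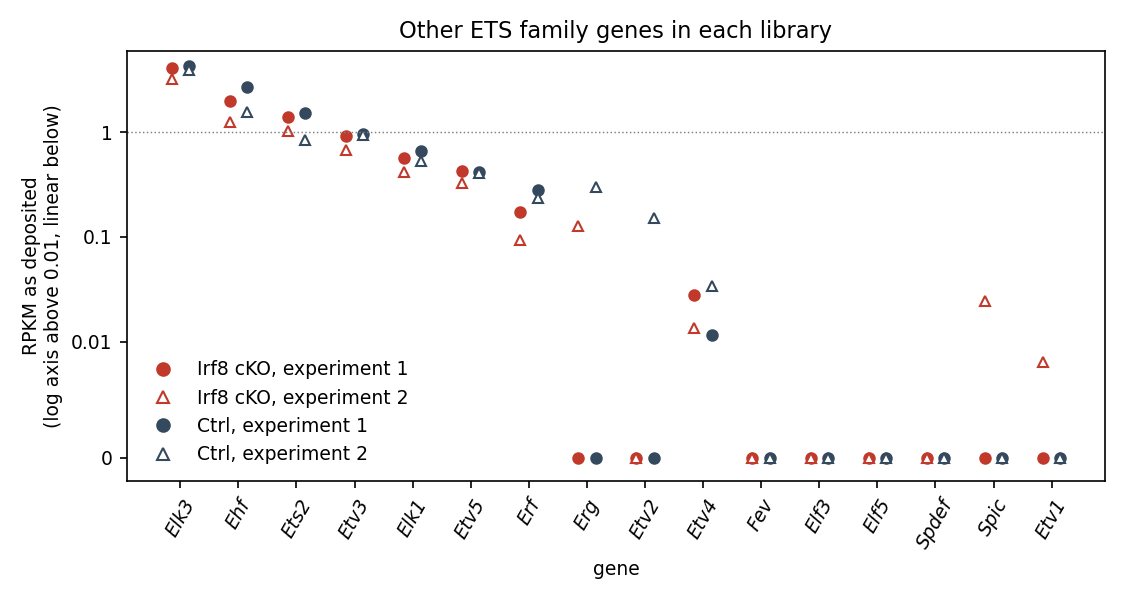
RPKM as deposited of the 16 other ETS family genes (horizontal axis) in each library; the vertical axis is logarithmic above 0.01 and linear below, with colours and symbols for genotype and experiment as in the legend and a dotted line at 1 RPKM. Elk3 is highest, from 3.22 to 4.32 RPKM, and 4 genes are at 0 in all 4 libraries.

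For proteins that ETS factors bind DNA with, 7 genes were listed, and only their transcripts were measured. None of these 7 genes passed in either scaling (1 as deposited and 2 after scaling had an unadjusted p under 0.05 in limma, against 18.8% and 10.6% of all tested genes). Irf4, the other IRF that PU.1 and Spi-B recruit, measured 4.11 and 3.64 RPKM in the libraries labelled Irf8 cKO 1 and 2, against 4.51 and 3.47 RPKM in Ctrl 1 and 2. Irf8 and Irf4 had log2 ratios of 0.08 and -0.03 as deposited and 0.56 and 0.39 after scaling (limma adjusted p = 0.880 and 0.950 as deposited, 0.394 and 0.5001 after scaling). The B lineage factor gene Pax5, whose product recruits ETS1, measured 26.0 and 28.9 RPKM in the libraries labelled Irf8 cKO, against 23.6 and 33.3 RPKM in Ctrl. It had a log2 ratio of -0.03 in the deposited values and of 0.47 on the scaled ones (limma adjusted p = 0.951 and 0.459). The scaled ratios of Irf8, Irf4 and Pax5 lay above the range of the members, a difference that was not tested.

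Runx1, whose product binds beside ETS1, had a log2 ratio of -0.35 as deposited and -0.0041 after scaling. Gabpb1 and Gabpb2, the beta subunits of GABP, had ratios of -0.27 and -0.47 in the deposited values and, once scaled, of 0.12 and -0.05, next to -0.37 and 0.06 for Gabpa. Srf, the partner of Elk4, measured 1.61 and 0.883 RPKM in the libraries labelled Irf8 cKO 1 and 2, against 1.86 and 2.96 RPKM in Ctrl 1 and 2. The log2 ratio of Srf was -0.60 as deposited (limma adjusted p = 0.228) and -0.30 after scaling (adjusted p = 0.619), where it was 0.03 in experiment 1 and -0.62 in experiment 2. With the library labelled Irf8 cKO 1 left out and no block, Srf passed as deposited at -0.84 (limma adjusted p = 0.0239), where the lone library is assumed to vary as the Ctrl pair does. With the library labelled Irf8 cKO 2 left out instead, it stood at -0.37 (limma adjusted p = 0.99993).

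Known targets were read list by list. Of 15 listed genes that PU.1, Spi-B or PU.1 with an IRF are known to regulate in B cells, 14 were tested. As deposited, Ms4a1 passed as lower, as did 1.1% of all tested genes, and the other 13 did not pass. Ms4a1, which encodes the surface protein CD20, measured 49.0 and 23.4 RPKM in the libraries labelled Irf8 cKO 1 and 2, against 96.4 and 67.6 RPKM in Ctrl 1 and 2. The ratio of Ms4a1 was -1.23 ± 0.34 on the log2 scale (SE; limma adjusted p = 0.0356), and -0.72 once scaled (adjusted p = 0.389). The call ended there, without the block (limma adjusted p = 0.614), with no filter on low values (0.310), and when the library labelled Irf8 cKO 2 (0.99993), Ctrl 1 (0.99973) or Ctrl 2 (0.912) was left out. The antigen receptor chains Cd79a and Cd79b had -0.61 and -0.71 as deposited and -0.10 and -0.19 after scaling, and did not pass (limma adjusted p = 0.286, 0.241, 0.907 and 0.816). The median of the 14 genes was -0.46 as deposited and -0.05 after scaling, beside -0.35 and 0.0036 for all tested genes. P2ry10, a purinergic receptor family gene among the 14, reached 1 RPKM in Ctrl only, and without it the medians were -0.43 and -0.04. As deposited, 2 of the 13 genes without P2ry10 had an unadjusted p under 0.05 in limma, against 18.8% of all tested genes. Once scaled, 0 of these 13 passed and 1, Ms4a1, had an unadjusted p under 0.05 in limma, against 10.6% of all tested genes.

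Of 10 genes listed for SRF with ELK-type factors, Egr1, Mcl1 and Srf were tested and none passed (2 as deposited and 1 after scaling had an unadjusted p under 0.05 in limma, against 18.8% and 10.6% of all tested genes). Mcl1, which encodes a survival protein of the BCL2 family needed by GC B cells, measured 15.1 and 6.26 RPKM in the libraries labelled Irf8 cKO 1 and 2, against 28.2 and 19.3 RPKM in Ctrl 1 and 2. The ratio of Mcl1 was -1.17 ± 0.35 on the log2 scale (SE; limma adjusted p = 0.0567), and -0.69 once scaled (adjusted p = 0.297). It passed with the library labelled Irf8 cKO 1 left out and no block (-1.75, limma adjusted p = 0.0102), and when RPKM were rescaled without the ribosomal RNA gene Rn45s (-1.13, adjusted p = 0.0158). It did not pass with the library labelled Irf8 cKO 2 left out (-0.59, limma adjusted p = 0.99993), nor without the block alone (adjusted p = 0.614). Egr1, an immediate early gene, had -0.24 as deposited and 0.18 after scaling. All 6 listed mitochondrial targets of GABP were tested and none passed, and limma gave an unadjusted p under 0.05 to 2 of them as deposited and to 0 once scaled, against 18.8% and 10.6% of all tested genes. Their median was -0.45 as deposited and -0.10 after scaling. Atp5b, Cox4i1 and Cox5b, subunits of ATP synthase and cytochrome oxidase, had -0.70, -0.72 and -0.65 as deposited and -0.18, -0.23 and -0.19 after scaling.

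**Figure D5:**
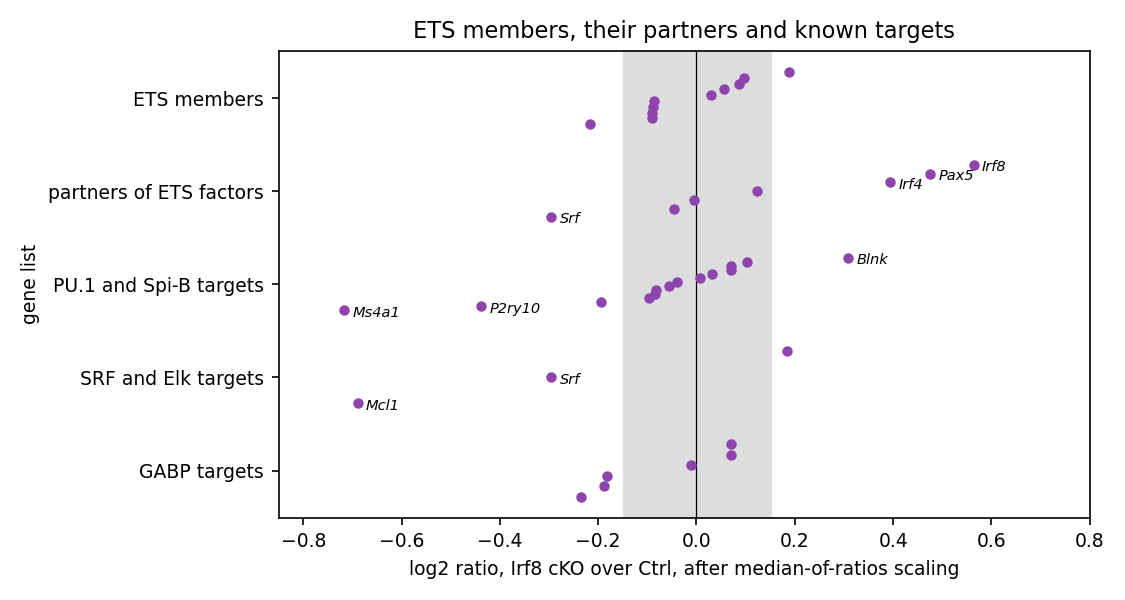
Log2 ratio of Irf8 cKO over Ctrl after median-of-ratios scaling (horizontal axis) for each tested gene of the ETS members, their DNA-binding partners and 3 lists of known targets (vertical axis); each point is a gene, genes beyond 0.25 from 0 are named, and the grey band holds the middle 50% of all tested genes. The members lie between -0.22 and 0.19, Irf8 at 0.56, Ms4a1 at -0.72 and Mcl1 at -0.69, none of which passed on this scale.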

How the data were processed

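Per the labels' protocols, RNA came from an RNeasy kit, was amplified by Ovation RNA-Seq v2 and sequenced from Nextera XT libraries. Each experiment has 1 table deposited by the authors, with RPKM for 2 libraries, the authors' log2 ratio and their unadjusted p-value, per the file headers; the series design text names Wardrobe. The submitters' processing notes list mm9, mm10, TopHat2 2.0, Cufflinks 2.2, Cuffdiff and DESeq without roles. For these tables the aligner was not given in the sources used here. Deposited start sites match GRCm38 (mm10).

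From the deposited RPKM, log2(RPKM + 1) was fitted with limma 3.58.1 (R 4.3.3, eBayes with trend, 2-sided), with a block for experiment that left 1 residual degree of freedom. Prior degrees of freedom were infinite as deposited and 6.65 after scaling. As deposited, the p-value of a gene thus rests on the variance trend over all genes and not on its own spread between libraries. Low values were whole within 0.1 reads for 71.3% to 73.8%, on GENCODE M21 lengths, so no count model was run. The labels number the experiments, which pairs the libraries; their deviations from group means correlated across genes at 0.377 (0.330 scaled). Members, lists and tests were chosen with earlier results of these data known. Named are the members, other ETS genes and partners, and of each target list the genes past the threshold and the 3 most abundant; P2ry10 was added after its values were seen. The exact test used scipy 1.17.1. Alternatives changed the scaling, pseudocount, filter, block and libraries. The name of the Cre driver is not reported here.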

Additional observations from a re-analysis of the deposited data

How the results depend on the processing

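Under 16 alternatives to the fit 0 of the members passed (limma). In the alternatives that kept all 4 libraries, 0 or 1 member had an unadjusted p under 0.05 in limma. Of the 4178 to 15559 genes tested in them, 288 to 1985 had such a p. The lowest limma adjusted p of a member in these fits was 0.169 (Elf1, rescaled without Rn45s). Etv6 has no value under a filter of 2 RPKM. Genes lower and higher numbered 71 and 6 as reported, 6 and 2 after median-of-ratios scaling, 170 and 9 rescaled without Rn45s, 34 and 1 with a filter of 2 RPKM, and 0 and 0 with no filter on low values, where limma still gave 1694 lower and 291 higher at an unadjusted p under 0.05. With no replicate block they were 19 and 2 as deposited and 4 and 2 after scaling. Leaving out 1 library at a time without the block, where the lone library is assumed to vary like the other group, gave 0 to 1448 lower and 0 to 9 higher, the highest as deposited without the library labelled Irf8 cKO 1 and the lowest as deposited without Ctrl 1. That fit without Ctrl 1 gave 31 lower and 7 higher at an unadjusted p under 0.05.

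Signs of the log2 ratios turned with median-of-ratios scaling, with or without the replicate block, for Sfpi1 (0.19), Fli1 (0.087), Elf2 (0.030), Gabpa (0.056), Elk4 (0.10), Ehf (0.10), Elk3 (0.28), Irf4 (0.39), Gabpb1 (0.12), Pax5 (0.47) and Egr1 (0.18). Rescaled without Rn45s, Irf4 stood at 0.0090 and Pax5 at 0.014. The cause was not tested beyond the shift of all genes that the scaling removes. Over the fits without 1 library on either scale, the ratio ran from -0.35 to 0.40 for Sfpi1, -0.85 to 0.043 for Spib, -1.01 to 0.018 for Ets1, -0.66 to 0.090 for Fli1, -0.75 to 0.14 for Elf2, -0.36 to 0.036 for Etv6, -0.69 to 0.15 for Gabpa and -0.48 to 0.28 for Elk4. Elf1 (-0.94 to -0.13) and Elf4 (-0.90 to -0.0047) stayed below 0 in these fits, as did Srf (-0.84 to -0.019) and Mcl1 (-1.75 to -0.42). So did Ms4a1 (-1.74 to -0.54), Cd79a (-0.86 to -0.005) and Cd79b (-1.01 to -0.15). The ratio ran from -0.18 to 0.49 for Ets2, -0.50 to 0.29 for Ehf, -0.27 to 0.42 for Elk3, -0.18 to 0.61 for Irf4, -0.31 to 0.66 for Irf8, -0.56 to 0.15 for Gabpb1, -0.80 to 0.052 for Gabpb2, -0.50 to 0.074 for Runx1, -0.27 to 0.89 for Pax5, -0.40 to 0.30 for Egr1, -1.06 to 0.093 for Atp5b, -1.11 to 0.068 for Cox4i1 and -1.06 to 0.13 for Cox5b. In the other alternatives the members kept their sign. The difference in log2 of Sfpi1 over Spib was 0.34 with a pseudocount of 1 and 0.041 to 0.58 without 1 library.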
